A study of Mus musculus with 45 samples.

Results

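Imprinted growth genes were followed in the mouse uterus, the 10 genes Plagl1, H19, Dlk1, Meg3, Cdkn1c, Peg3, Mest, Grb10, Ndn and Gnas. They were chosen by symbol as genes of the imprinted set linked to Plagl1, and all 10 had an entry among the 24422 genes of the count table. RNA was taken from superovulated CD-1 females aged 1 to 3 months, either wild type (WT) or homozygous for a constitutive Plag1 deletion (Plag1KO) in which lacZ takes the place of the whole open reading frame. Every female of both genotypes had received 5 IU pregnant mare serum and, 2 days later, 5 IU hCG, and was killed on the following day. Whole uterus, scraped endometrium and the remaining myometrium came from the same 14 mice, 7 per genotype, which gave 6 groups of 7 samples.

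An imprinted gene is expressed mainly from the allele inherited from one parent, and many such genes promote or restrain growth of the fetus and placenta. The product of Plagl1 binds DNA through zinc fingers and activates or represses transcription. The gene is itself imprinted and is known for regulating a set of other imprinted genes in embryonic tissues. PLAG1, the protein removed here, belongs to the same protein family and has a similar DNA-binding domain. Allele of origin was not measured in these data, so all values are the sum of both alleles.

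The 45 libraries held 256298 to 1222627 counts each without the ERCC spike-in RNA, with a median of 646405. STRT sequencing counts the 5′ ends of transcripts, so the values carry no length correction. Differences were tested between samples of 1 gene, and mean levels of the members are given only to show how many counts lie behind them. A floor of 3 counts per library was used. Over the totals of the 42 mouse and tissue samples, 3 counts corresponded to 1.23 to 11.7 CPM (counts of a gene per 1000000 counts of the library or summed sample). The low end belongs to a sample summed from 3 libraries, with 2431043 counts. In a single library the floor therefore starts at a higher CPM. Labelled tissues differed in their defining markers. The summed level of 4 smooth muscle markers (Acta2, Des, Myh11, Cnn1) had a median of 14396 CPM in WT and 15402 CPM in Plag1KO myometrium against 1411 and 581 CPM in endometrium, and 4 epithelial markers (Krt8, Krt18, Epcam, Cdh1) had medians of 978 and 1376 CPM in endometrium against 107 and 183 CPM in myometrium. The endometria of Plag1KO mouse 13 and WT mouse 3 stood apart with 8082 and 7359 CPM of smooth muscle markers, and that of WT mouse 8 with 6193 CPM of 3 oviduct and cilia markers, against a WT median of 73.2. The number of members called between the layers was 3 in Plag1KO with or without mouse 13, and 1 in WT with or without mouse 3 or mouse 8. Plag1 had 7 counts in all 45 libraries and at most 1 in any of them, also in WT, so it did not check the genotype labels.

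The 10 genes differed widely in their level of detection. Gnas, which encodes the stimulatory G protein alpha subunit, averaged 737 CPM over the 42 samples. Cdkn1c (a cyclin-dependent kinase inhibitor that arrests the cell cycle), Ndn (necdin, a growth suppressor) and Grb10 (an adaptor that dampens insulin and growth factor signalling) averaged 38.6, 38.6 and 20.6 CPM. Meg3 (a maternally expressed long noncoding RNA), Mest (a hydrolase-like protein of mesoderm) and Plagl1 averaged 6.04, 5.78 and 3.57 CPM, levels at which many libraries held only a few counts.

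The remaining 3 genes were close to or below detection. H19, a maternally expressed noncoding RNA, had 19 counts in 12 of 45 libraries and at most 3 in any library. Peg3, a paternally expressed zinc finger gene, had at most 5 counts per library, and its only library above the floor was a WT myometrium. Dlk1, a paternally expressed membrane ligand related to the Notch ligands, had 1 count in 1 of 45 libraries. Folds are therefore not given for H19 and Dlk1 in any comparison, and these values say only that their transcripts were not detectable, or hardly so, at this depth.

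In the NCBIM37 assembly with GENCODE annotation, the 2 noncoding genes were H19 (chr7:149761434-149764048, minus strand) and Meg3 (chr12:110779211-110809936, plus strand). The protein-coding members with the highest counts were Gnas (chr2:174109821-174172245, plus strand), Ndn (chr7:69493163-69494814, plus strand), Cdkn1c (chr7:150644255-150646955, minus strand) and Grb10 (chr11:11830511-11938686, minus strand). Plagl1 lay at chr10:12810497-12851500 and Mest at chr6:30673547-30698457, both on the plus strand. Gnas overlapped the antisense genes Nespas and AF085738, Mest overlapped Copg2 on the opposite strand, and Meg3 contained microRNA genes on its own strand. The strand setting of the authors' counting was not given in the sources used here, so reads of these genes and their overlapping partners could not be told apart.

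Since PLAG1 is the factor removed, the promoters of the 10 genes were searched for its consensus site. RefSeq promoters of GRCm38.p6, of which the 250 bases before each start site were used, held 15 entries for 8 of the 10 genes, and H19 and Cdkn1c had none. Both kinds of letters were searched on both strands, the PLAG1 consensus (a core and a G cluster 6 to 8 bases apart) and 9 letters of the PLAGL1 site, GGGGGCCCC. The PLAG1 consensus was found in 3 of the 15 promoters, of Plagl1 with 2 matches and of Peg3 and Gnas with 1 match each, and in 16.8% of all 32851 promoters of the same length. The PLAGL1 letters were found in the Peg3 promoter only, against 0.335% of all promoters. The 3 matching promoters are shown because they carry these letters, and that of Ndn because Ndn differed most clearly between the tissues. Sequences run 5′ to 3′ in the direction of the gene, with the matches in capitals. In the Peg3 sequence the first run of capitals is the PLAGL1 letters, and every other run is the PLAG1 consensus or its reverse complement. A match is a description of the sequence and not evidence of binding.
Plagl1, chr10:13090582-13090831, plus strand: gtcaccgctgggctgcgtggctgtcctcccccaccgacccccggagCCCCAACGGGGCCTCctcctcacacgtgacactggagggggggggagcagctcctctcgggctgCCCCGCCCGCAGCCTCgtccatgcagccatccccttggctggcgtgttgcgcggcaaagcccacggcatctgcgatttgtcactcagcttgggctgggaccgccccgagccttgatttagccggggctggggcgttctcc
Peg3, chr7:6730420-6730669, minus strand: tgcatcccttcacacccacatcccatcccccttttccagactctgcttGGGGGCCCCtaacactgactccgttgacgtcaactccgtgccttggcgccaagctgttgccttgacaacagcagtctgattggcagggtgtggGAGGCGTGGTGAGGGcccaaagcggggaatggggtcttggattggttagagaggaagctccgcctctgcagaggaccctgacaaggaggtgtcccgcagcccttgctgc
Gnas, chr2:174329756-174330005, plus strand: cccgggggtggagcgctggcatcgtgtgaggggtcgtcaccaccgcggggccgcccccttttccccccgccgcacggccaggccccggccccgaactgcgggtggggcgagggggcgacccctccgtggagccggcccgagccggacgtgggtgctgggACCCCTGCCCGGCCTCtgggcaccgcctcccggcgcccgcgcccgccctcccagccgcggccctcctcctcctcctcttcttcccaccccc
Ndn, chr7:62348027-62348276, plus strand: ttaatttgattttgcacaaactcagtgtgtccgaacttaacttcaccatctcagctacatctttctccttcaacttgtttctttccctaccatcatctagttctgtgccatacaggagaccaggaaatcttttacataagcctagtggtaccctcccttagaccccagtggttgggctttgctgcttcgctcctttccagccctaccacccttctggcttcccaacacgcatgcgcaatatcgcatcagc

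The first question was whether loss of PLAG1 changed these genes in the uterus. It did not change any of the 10 past the threshold in any tissue. Of the members, 7 were tested in whole uterus, 8 in endometrium and 8 in myometrium, and edgeR's quasi-likelihood test with Benjamini-Hochberg adjustment called 0 of them in each. The same test called 0% of the 12959, 13004 and 12991 genes tested. Without adjustment, p was under 0.05 for 731, 676 and 548 genes, among which were 2 members in whole uterus and 0 in the other tissues. DESeq2 called 0, 1 and 0 genes, and 0 members.

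Cdkn1c and Mest were the members with an unadjusted p under 0.05, both in whole uterus. Cdkn1c ranged from 6.35 to 66.9 CPM with a median of 29.6 in WT uterus and from 3.48 to 29.1 CPM with a median of 14.4 in Plag1KO uterus. The ranges overlapped, and 4 WT mice lay above every Plag1KO mouse. The estimated log2 fold change was -1.13 ± 0.41 (SE, n = 7 mice per genotype), with an edgeR p of 0.0122 and an adjusted p of 0.713. The difference of mean log2 CPM was -0.90 among the 8 mice of plate rows A to C and -1.43 among the 6 mice of rows D to F. Plate rows were inferred here from the letters of the library codes, which the labels do not explain. In the separated layers the estimate was 0.45 ± 0.37 in endometrium and -0.22 ± 0.32 in myometrium, both within the spread between mice.

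Mest in whole uterus ranged from 4.11 to 10.6 CPM with a median of 6.35 in WT and from 0 to 6.23 CPM with a median of 1.84 in Plag1KO. Its 52 counts over the 7 WT samples stood against 15 counts over the 7 Plag1KO samples, and 2 of the latter had none. Its log2 estimate was -1.33 ± 0.53 with an edgeR p of 0.0201 and an adjusted p of 0.789, and the ranges overlapped. In endometrium it was 0.08 ± 0.57 and in myometrium -0.73 ± 0.49.

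For the other members the intervals of the genotype difference show what these samples could resolve. Ndn was the best resolved in uterus and myometrium, but not in endometrium. Its log2 estimates were -0.16 ± 0.23 in uterus, -0.09 ± 0.40 in endometrium and 0.05 ± 0.21 in myometrium. The 95% interval was -0.38 to 0.47 in myometrium and -0.91 to 0.74 in endometrium. Gnas gave 0.35 ± 0.31, -0.49 ± 0.34 and 0.30 ± 0.23, and Grb10 gave -0.24 ± 0.32, 0.35 ± 0.34 and 0.01 ± 0.30, in the same order. Meg3 (0.82 ± 0.78, -1.15 ± 0.65 and -0.10 ± 0.44) and Plagl1 (-0.60 ± 0.86, 0.18 ± 0.88 and -0.37 ± 0.51) had wide errors. For Plagl1 the 95% interval in endometrium ran from -1.63 to 2.00, so it held severalfold changes in either direction. For Meg3 the interval ran from -0.80 to 2.45 in uterus and from -2.50 to 0.20 in endometrium. A difference inside these intervals was therefore not detectable at this depth, which is not the same as its absence.

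**Figure D1:**
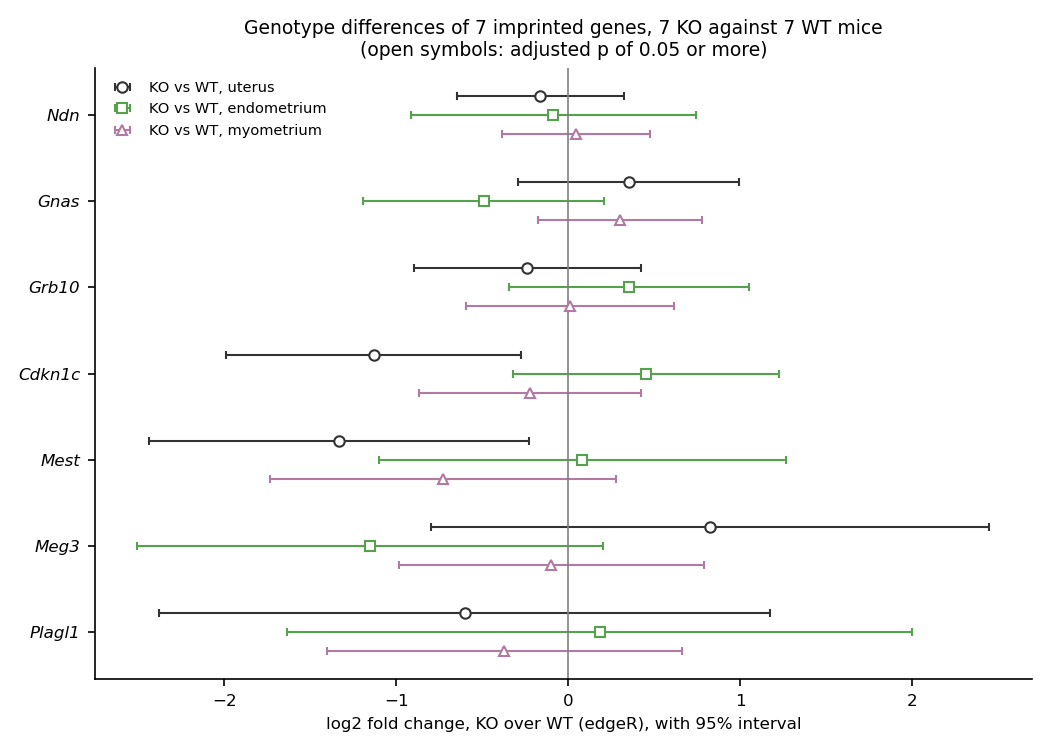
Log2 fold change of Plag1KO over WT on the horizontal axis for 7 genes (vertical axis), with 1 symbol per tissue and bars for the 95% interval (7 mice per genotype). Every symbol is open, since no adjusted p was under 0.05, and only the whole uterus intervals of Cdkn1c and Mest lie wholly below 0.

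The second question was how the genes were distributed between the 2 layers of the uterus. Ndn was lower in endometrium than in myometrium in both genotypes, and Meg3 and Gnas were lower in Plag1KO. In WT, 1 of 9 tested members was called (edgeR, adjusted p under 0.05), against 13.2% of all 13227 genes tested and 6.39% called lower. In Plag1KO, 3 of 8 were called, all lower, against 19.3% of 12969 genes and 8.71% called lower. The WT share is near the background. These fits did not pair the tissues of a mouse. With a term for each mouse (the mouse as a block), 2 members were called in WT and 3 in Plag1KO, beside 1850 and 2776 of all genes. In bulk tissue, fewer cells of a type and less RNA per cell cannot be told apart, and within each block of plate rows (A to C or D to F) the layers sat in different rows apart from 3 repeat libraries, so the part of the row was not tested.

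Ndn in WT ranged from 6.67 to 36.0 CPM with a median of 27.6 in endometrium and from 39.4 to 75.2 CPM with a median of 62.5 in myometrium. In Plag1KO it ranged from 4.93 to 30.5 CPM with a median of 19.5 in endometrium and from 48.5 to 74.4 CPM with a median of 59.8 in myometrium. The layers did not overlap in either genotype, and endometrium was the lower in 7 of 7 mice of each. The log2 fold change of endometrium over myometrium was -1.48 ± 0.32 in WT (edgeR adjusted p of 0.00230) and -1.61 ± 0.29 in Plag1KO (adjusted p of 0.000289). It was of similar size within each block of plate rows, with differences of mean log2 CPM of -1.61 (block A to C) and -1.47 (block D to F) in WT and of -1.99 and -1.34 in Plag1KO. Of the alternatives tried, all 16 in each genotype kept the call.

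Meg3 followed the same order with fewer counts. In Plag1KO it ranged from 0 to 4.94 CPM with a median of 1.97 in endometrium and from 3.73 to 26.3 CPM with a median of 8.68 in myometrium, and it was lower in the endometrium of 7 of 7 mice although the ranges overlapped. Its estimated log2 difference was -2.18 ± 0.58 (edgeR adjusted p of 0.00923). In WT the ranges were 0 to 13.9 CPM in endometrium and 1.88 to 25.0 CPM in myometrium, with the endometrium lower in 6 of 7 mice and an estimate of -1.15 ± 0.49 that missed the threshold (adjusted p of 0.140).

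Plagl1 itself was close to the floor outside the myometrium. In WT endometrium 4 of 7 samples had no count and the highest had 10.0 CPM, whereas in WT myometrium all 7 had counts, from 2.00 to 13.3 CPM with a median of 8.63. The difference in log2 was -1.98 ± 0.68 with an adjusted p of 0.0517, and with the mouse as a block it was -2.12 with an adjusted p of 0.0236, which passes. In Plag1KO the endometrium ranged from 0 to 8.37 CPM and the myometrium from 0 to 17.2 CPM, and the estimate of -1.40 ± 0.71 did not pass (adjusted p of 0.181). Plag1KO mouse 4 gave the highest value in both layers, and was also the highest of its genotype for Cdkn1c in both layers, at 82.3 and 97.3 CPM.

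Gnas passed in Plag1KO, where it ranged from 258 to 1317 CPM with a median of 525 in endometrium and from 552 to 1673 CPM with a median of 869 in myometrium. The log2 fold change was -0.83 ± 0.29 (edgeR adjusted p of 0.0451), endometrium was lower in 6 of 7 mice and the ranges overlapped. This call rested on single mice and on the scaling. It was lost without mouse 4, 6, 9 or 14 (adjusted p from 0.0624 to 0.192), with 1 library per mouse (adjusted p of 0.0606), with all 6 groups in a single fit (0.0760) and with spike-in scaling, where the log2 fold change was -0.29 (adjusted p of 0.564). In WT the estimate was -0.03 ± 0.30, and it changed sign with spike-in scaling and with repeat libraries kept apart. The highest WT endometrium (mouse 10) had 2071 CPM, more than any of the WT myometrium samples.

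Cdkn1c, Mest and Grb10 did not pass in either genotype. Their WT estimates were -0.85 ± 0.37, -1.04 ± 0.56 and -0.52 ± 0.32, and in Plag1KO they were -0.16 ± 0.33, -0.22 ± 0.49 and -0.18 ± 0.31. The 3 Plag1KO values changed sign with spike-in scaling, which moved all genes together and placed their median at 0.58 in that comparison, against 0.08 with TMM scaling. In WT the medians were 0.21 and 0.01.

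**Figure D2:**
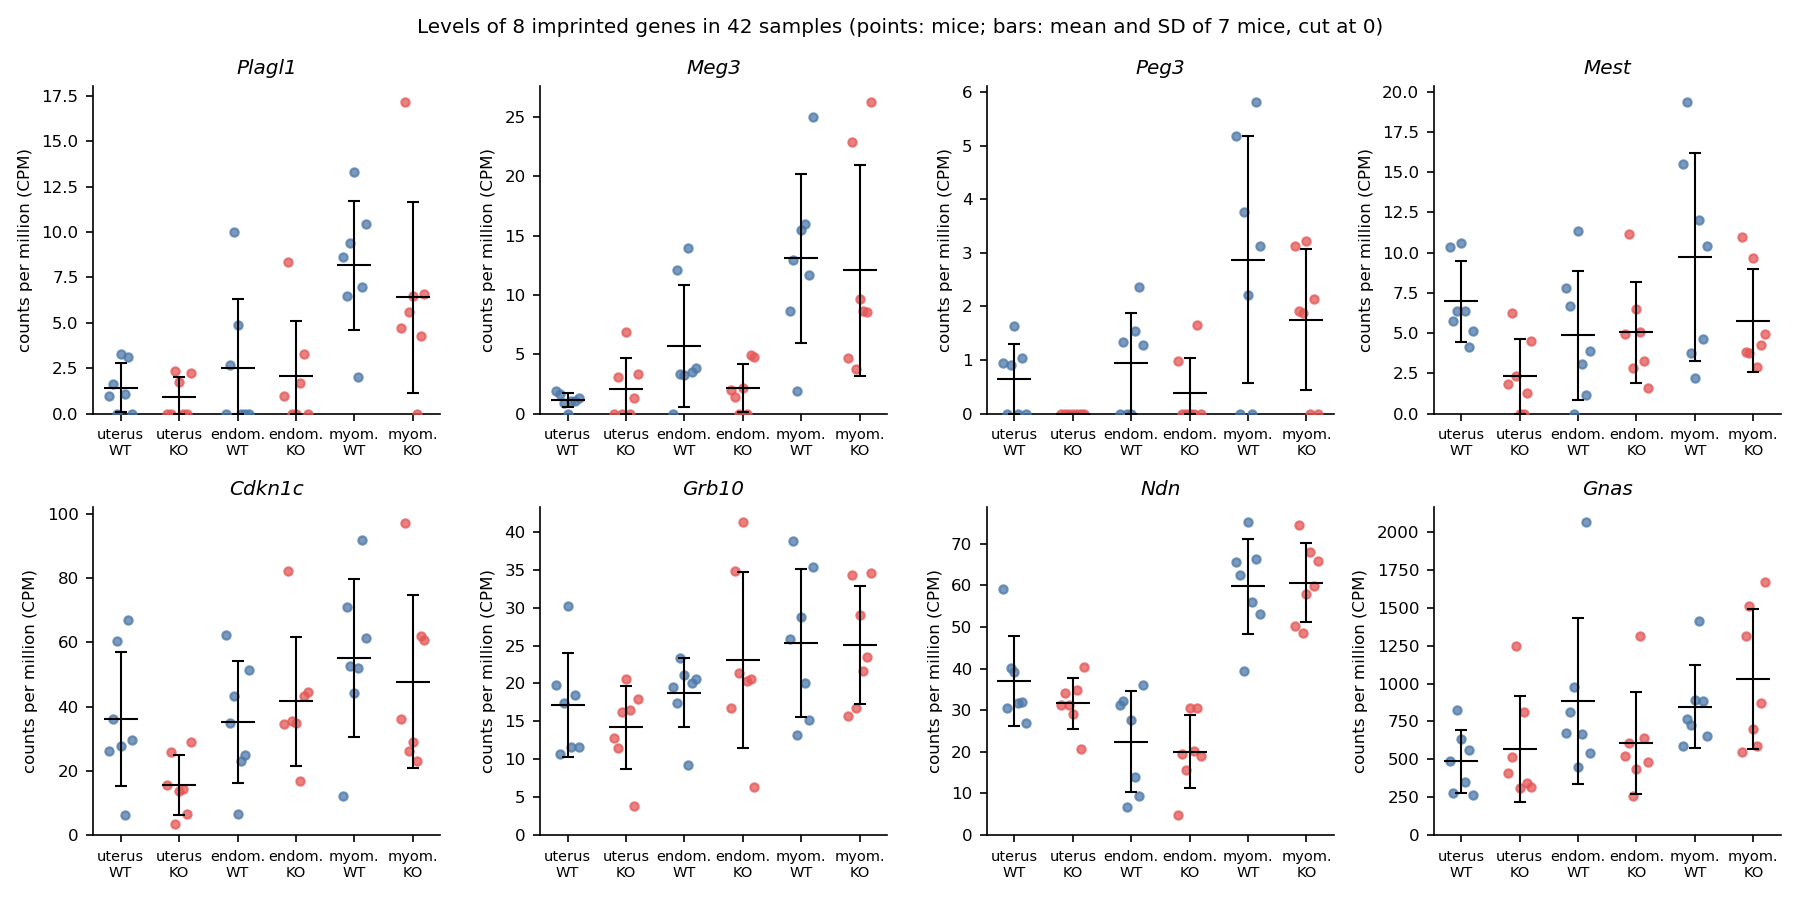
CPM (vertical axis) of 8 genes in the 6 groups (horizontal axis), with 1 point per mouse in blue for WT and red for Plag1KO, and bars for the mean and SD of 7 mice. Ndn points of myometrium lie above all endometrium points in both genotypes, while Peg3 stays under 6 CPM.

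Whether the difference between layers depended on genotype was tested as an interaction, and 0 of 9 members passed, against 0% of the 14314 genes tested (edgeR). No member had an unadjusted p under 0.05, compared with 658 of all genes, and DESeq2 called 0 members and 0 genes. The estimate was -0.12 ± 0.43 for Ndn, -0.80 ± 0.44 for Gnas and -1.02 ± 0.77 for Meg3 (log2, Plag1KO minus WT). The calls of Gnas and Meg3 in Plag1KO alone are thus not shown to differ from WT.

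Whole uterus, which contains both layers, was then compared with each of them. Meg3 and Plagl1 were lower in whole uterus than in myometrium in both genotypes, and Cdkn1c, Ndn and Gnas in 1 genotype each. In WT, 3 of 9 tested members were called, against 12.0% of 13104 genes and 5.32% called lower, and in Plag1KO 5 of 8 were called, against 14.1% of 12970 genes and 6.06% called lower. All of these calls were lower in whole uterus. Against endometrium, 0 of 9 members were called in WT and 0 of 7 in Plag1KO, where 1.60% of 13091 and 1.25% of 12961 genes were called. An unadjusted p under 0.05 was reached by 3 members in WT (Meg3, Ndn and Gnas) and 2 in Plag1KO (Cdkn1c and Ndn), beside 1973 and 1863 of all genes, and DESeq2 called 0 members and 474 and 431 genes.

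Meg3 was near the floor in whole uterus. It ranged from 0 to 1.88 CPM with a median of 1.06 in WT uterus, where no library was above the floor, against 1.88 to 25.0 CPM with a median of 12.9 in WT myometrium. The log2 fold change was -3.24 ± 0.53 (edgeR adjusted p of 0.000565), and uterus was lower in 7 of 7 mice. In Plag1KO the uterus ranged from 0 to 6.86 CPM, again lower in 7 of 7 mice, with a log2 fold change of -2.32 ± 0.63 (adjusted p of 0.0138). The Plag1KO call was lost without mouse 4 or 14 (adjusted p of 0.0511 and 0.0555).

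Plagl1 was called lower in the uterus of both genotypes. WT uterus ranged from 0 to 3.27 CPM with a median of 1.06, and Plag1KO uterus from 0 to 2.32 CPM with 4 of 7 samples at 0. The log2 fold changes against myometrium were -2.18 ± 0.57 (edgeR adjusted p of 0.0131) and -2.38 ± 0.77 (adjusted p of 0.0373). The WT call was lost without mouse 12 (adjusted p of 0.0504), and the Plag1KO call without mouse 2, 4, 9 or 13 (adjusted p from 0.0502 to 0.197) and with spike-in scaling (0.0881).

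Cdkn1c differed in Plag1KO, where whole uterus was below both layers in 7 of 7 mice in CPM without TMM scaling. Its uterine range of 3.48 to 29.1 CPM overlapped that of endometrium, 16.9 to 82.3 CPM, and that of myometrium, 23.2 to 97.3 CPM. Mouse 11 had 14.4 CPM in uterus and 16.9 CPM in endometrium. The TMM factors of these samples, by which CPM are divided, were 0.972 and 1.22, which reverses their order. Of the 4299 genes with a mean of at least 20 CPM, 1.35% were below both layers in all 7 Plag1KO mice and 1.40% in all 7 WT mice. Only 0.093% and 0.233% were above both layers, so below was the more frequent order over all genes. The reason was not tested. For Cdkn1c the log2 fold change of uterus over myometrium was -1.39 ± 0.36 (edgeR adjusted p of 0.0103), and the call was lost with spike-in scaling (-0.96, adjusted p of 0.119). Over endometrium it was -1.25 ± 0.38, which missed the threshold (adjusted p of 0.108) but passed with the mouse as a block (-1.30, adjusted p of 0.0176). In WT, Cdkn1c in uterus was below both layers in 2 of 7 mice. Other members showed this order too in unscaled CPM, with Grb10 in 6 and Mest in 5 of 7 Plag1KO mice, Meg3 in 6 of 7 WT mice and Gnas in 5 of 7 mice of each genotype. Scaling would change some of these. Grb10 in Plag1KO mouse 6 had 16.2 CPM in uterus and 16.8 CPM in myometrium, with TMM factors of 0.792 and 0.956. The share over all genes was computed for all 7 mice and at least 20 CPM only, so none stands beside these counts. The Cdkn1c estimates in WT were -0.48 ± 0.37 against myometrium and 0.33 ± 0.40 against endometrium.

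**Figure D3:**
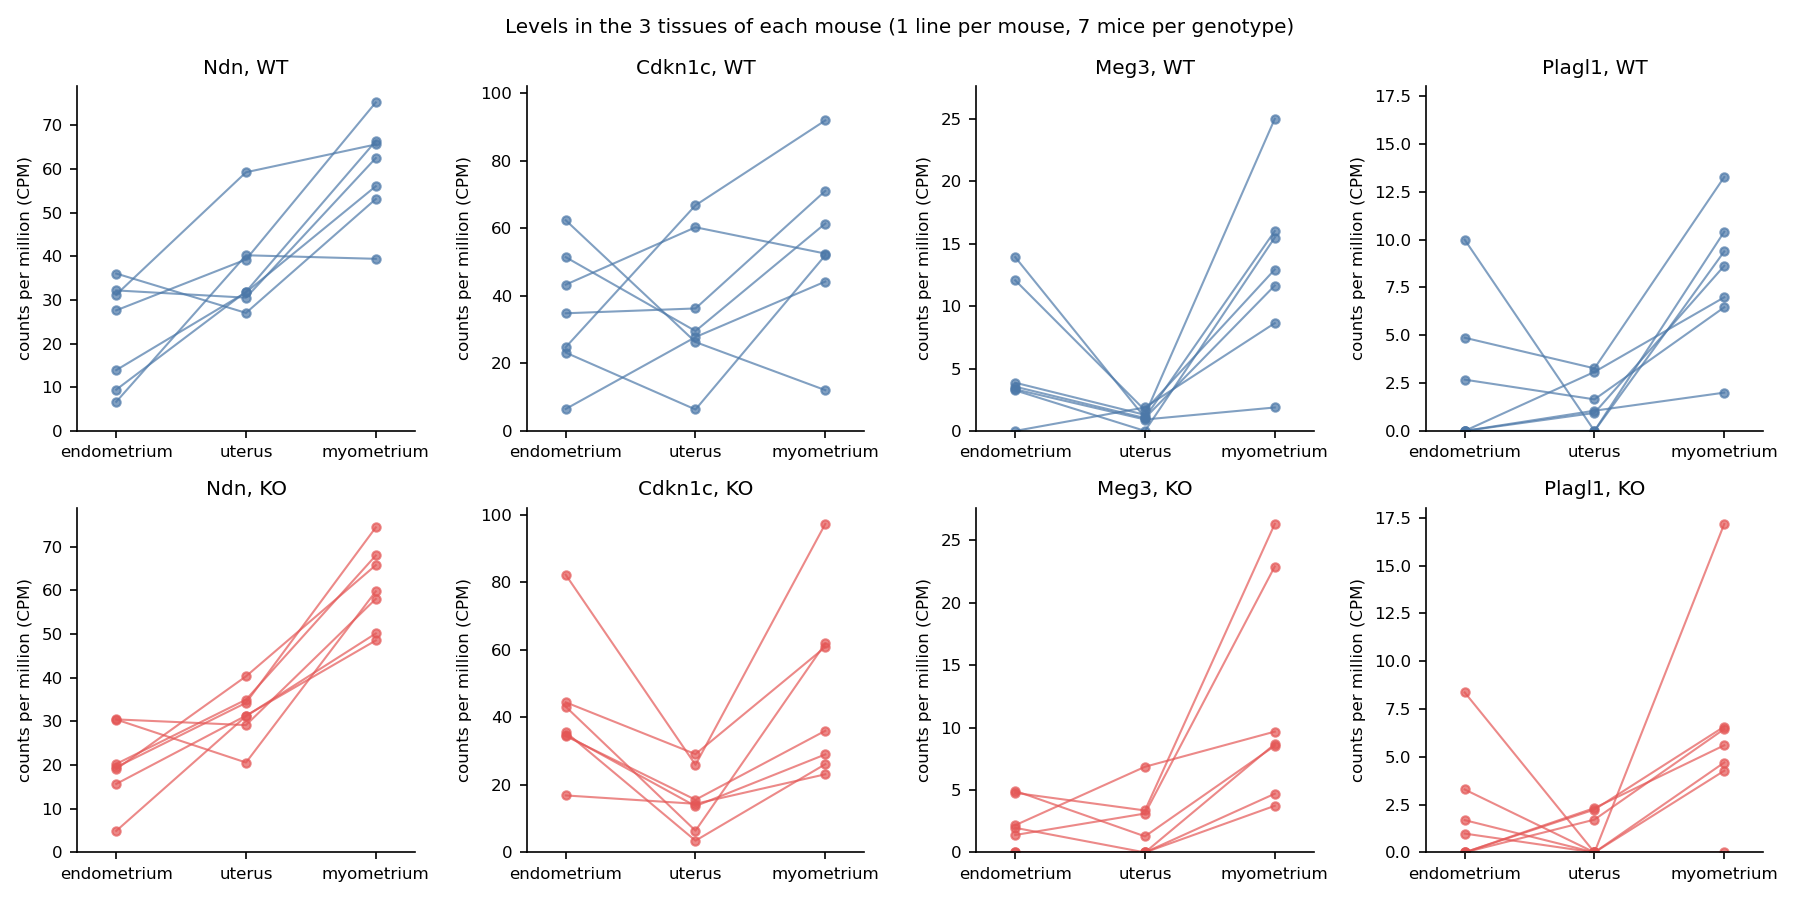
CPM (vertical axis) of Ndn, Cdkn1c, Meg3 and Plagl1 in endometrium, whole uterus and myometrium (horizontal axis), with 1 line per mouse, WT above and Plag1KO below. Every Ndn line is higher in myometrium than in endometrium, and all 7 Cdkn1c lines of Plag1KO dip in whole uterus. The CPM shown are without TMM scaling.

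Ndn in Plag1KO uterus ranged from 20.6 to 40.3 CPM, below every myometrium sample, with a log2 fold change of -0.73 ± 0.22 (edgeR adjusted p of 0.0272). In WT it ranged from 27.0 to 59.2 CPM, overlapped the myometrium and gave -0.52 ± 0.23 (adjusted p of 0.137). The Plag1KO call was lost without mouse 2, 4, 9, 11, 13 or 14 (adjusted p from 0.0521 to 0.0709), with all 6 groups in a single fit (0.0742) and with spike-in scaling (-0.29, adjusted p of 0.553). Against endometrium, Ndn was 0.93 ± 0.34 in WT and 0.86 ± 0.31 in Plag1KO, with adjusted p of 0.185 and 0.179, and with the mouse as a block the WT value was 1.01 with an adjusted p of 0.0494. Its means in endometrium, whole uterus and myometrium were 22.4 ± 12.1, 37.1 ± 10.8 and 59.8 ± 11.5 CPM in WT and 20.1 ± 8.81, 31.7 ± 6.09 and 60.7 ± 9.44 CPM in Plag1KO (SD, n = 7).

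Gnas in WT uterus ranged from 266 to 827 CPM with a median of 486, against 587 to 1415 CPM with a median of 767 in myometrium. The log2 fold change was -0.69 ± 0.23 (edgeR adjusted p of 0.0474), lower in 6 of 7 mice, but it was 0.05 with spike-in scaling, where the median of all genes was 0.75. The call was also lost without mouse 3, 7, 8, 10 or 12 (adjusted p from 0.0656 to 0.205), with repeat libraries apart (0.0579) and with all 6 groups in a single fit (0.186). In Plag1KO it was -0.63 ± 0.31 (adjusted p of 0.185), and with the mouse as a block -0.71 with an adjusted p of 0.0111. The fifth call in Plag1KO was Peg3 (adjusted p of 0.0426), which had 0 counts in 7 of 7 uterus samples and 6 counts over the myometrium samples. Every library of both groups was at or under the floor, so no fold is given for it.

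Markers of several cell types also differed between the tissues. The sum of 5 stromal markers (Pdgfra, Col1a1, Col3a1, Lum, Vim) had medians of 3705 and 6034 CPM in WT and Plag1KO myometrium, 1322 and 1303 CPM in whole uterus and 1049 and 900 CPM in endometrium. Smooth muscle markers in whole uterus had medians of 7568 and 6808 CPM, between the layers. Epithelial markers in whole uterus, at 777 and 984 CPM, were near the endometrium. Of 4 mesothelial markers, 2 in WT and 3 in Plag1KO were called higher in whole uterus than in myometrium, and their sum had medians of 122 and 108 CPM in uterus, 15.5 and 25.8 CPM in myometrium and 9.39 and 16.9 CPM in endometrium. The sum of 4 adipocyte markers had medians of 4.72 and 1.59 CPM in endometrium against 73.0 and 67.4 CPM in myometrium, and the only marker of these tested was called lower in endometrium in both genotypes. Of the Schwann cell markers, 2 of 3 tested were called lower in Plag1KO endometrium, and their sum had medians of 2.68 and 2.79 CPM in endometrium against 6.64 and 13.0 CPM in myometrium. Leukocyte markers were called higher in whole uterus than in myometrium for 1 of 4 in WT and 2 of 4 in Plag1KO (edgeR), and the sum of 4 endothelial markers had medians from 33.5 to 68.3 CPM over the 6 groups. The part of these cell types in the differences of the members was not tested. Over the 42 samples, Ndn had r of 0.81 with Acta2, 0.78 with Col1a1 and -0.65 with Krt8, whereas r of Cdkn1c, Grb10 and Gnas with these 3 markers ran from -0.49 to 0.40. After each group's mean was removed, the values of Ndn were 0.48, 0.48 and -0.26, and those of the others ran from -0.41 to 0.30. With the other markers computed, Ndn had r before and after removal of 0.80 and 0.40 (Myh11), 0.63 and 0.004 (Dcn), -0.69 and -0.35 (Krt18), and -0.011 and 0.15 (Pecam1). Cdkn1c had 0.23 and 0.38 with Myh11. These samples share mice, plate rows and tissue groups, so the correlations are descriptions.

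The other imprinted genes of the mouse gave a mixed picture between the layers. Of 49 further imprinted genes listed, 48 had an entry. In WT, 35 were tested, of which 3 were called higher in endometrium (Cobl, H13, Kcnq1) and 4 lower (Dcn, Dio3, Igf2, Igf2r). In Plag1KO, 30 were tested, with 3 higher (Cobl, H13, Slc22a18) and 5 lower (Cd81, Dcn, Igf2, Igf2r, Kcnq1ot1). The calls came to 20% and 26.7% of those tested, against 13.2% and 19.3% of all genes, and the median log2 fold changes of -0.36 and -0.39 stood beside 0.01 and 0.08 over all genes. In the genotype comparisons 0 of them were called in any tissue (35, 34 and 33 tested), with 3, 0 and 0 at an unadjusted p under 0.05, beside 731, 676 and 548 of all genes.

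Igf2, the growth factor that shares a domain with H19, was lower in endometrium with log2 fold changes of -2.10 ± 0.62 in WT (edgeR adjusted p of 0.0220) and -2.15 ± 0.55 in Plag1KO (0.00758). Its median was 1.18 and 1.59 CPM in endometrium and 10.8 and 9.54 CPM in myometrium. Its receptor Igf2r, which clears it, was also lower, by -1.33 ± 0.33 (0.00608) and -0.87 ± 0.29 (0.0347). Dcn, the matrix proteoglycan decorin, did not overlap between layers in either genotype and had log2 fold changes of -1.13 ± 0.22 (0.000966) and -1.26 ± 0.25 (0.000840). H13, an intramembrane signal peptide peptidase, went the other way without overlap, at 1.24 ± 0.26 (0.00173) and 1.27 ± 0.22 (0.000190), and so did Cobl, an actin nucleator beside Grb10, at 2.68 ± 0.48 (0.000306) and 1.76 ± 0.53 (0.0194). Grb10, the neighbour of Cobl, did not pass in either genotype. With spike-in scaling the calls of Igf2 and Igf2r were lost in both genotypes (adjusted p from 0.0501 to 0.518) and that of Dcn in WT (0.103). Single mice also decided some of them. The call of Igf2 in WT was lost without mouse 1, 7, 8 or 12 (adjusted p from 0.0603 to 0.0886), that of Igf2r in Plag1KO without mouse 4, 6, 13 or 14 (0.0554 to 0.116) or in a single fit of all 6 groups (0.0584), and that of Cobl in Plag1KO without mouse 2, 9 or 11 (0.0519 to 0.0971).

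Other genes called between the layers lie in the domains of further members, and no test compared them with those members. Dio3, a thyroid hormone-inactivating deiodinase in the domain of Dlk1 and Meg3, was lower in WT endometrium (-2.28 ± 0.59, edgeR adjusted p of 0.00951) with -0.69 ± 0.62 in Plag1KO. In the Kcnq1 domain, which holds Cdkn1c, the noncoding Kcnq1ot1 was lower in Plag1KO endometrium (-1.09 ± 0.28, 0.00726) with -0.36 ± 0.32 in WT. The potassium channel gene Kcnq1 was higher in WT endometrium (1.95 ± 0.66, 0.0486). In Plag1KO it was at 1.504 ± 0.569 (0.0653), and it passed there with the mouse as a block (1.54, adjusted p of 0.0148) and with spike-in scaling (2.04, 0.0128). The transporter gene Slc22a18 was higher in Plag1KO endometrium (2.07 ± 0.54, 0.00877). In WT it was at 1.69 ± 0.58 (0.0534), and it passed with the mouse as a block (1.78, adjusted p of 0.0253). Cd81, a tetraspanin, was lower in Plag1KO endometrium (-0.64 ± 0.18, 0.0124) with -0.58 ± 0.25 in WT. Spike-in scaling ended the calls of Cd81 and Kcnq1ot1 (adjusted p of 0.763 and 0.242), that of Kcnq1 was lost without mouse 1, 5, 7, 8 or 10 (0.0533 to 0.166), with repeat libraries apart (0.0524) and in a single fit of all 6 groups (0.0739), and that of Dio3 without mouse 7 (0.0544). None of these 10 genes had an interaction with genotype past the threshold (edgeR adjusted p of 0.993 or more).

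**Figure D4:**
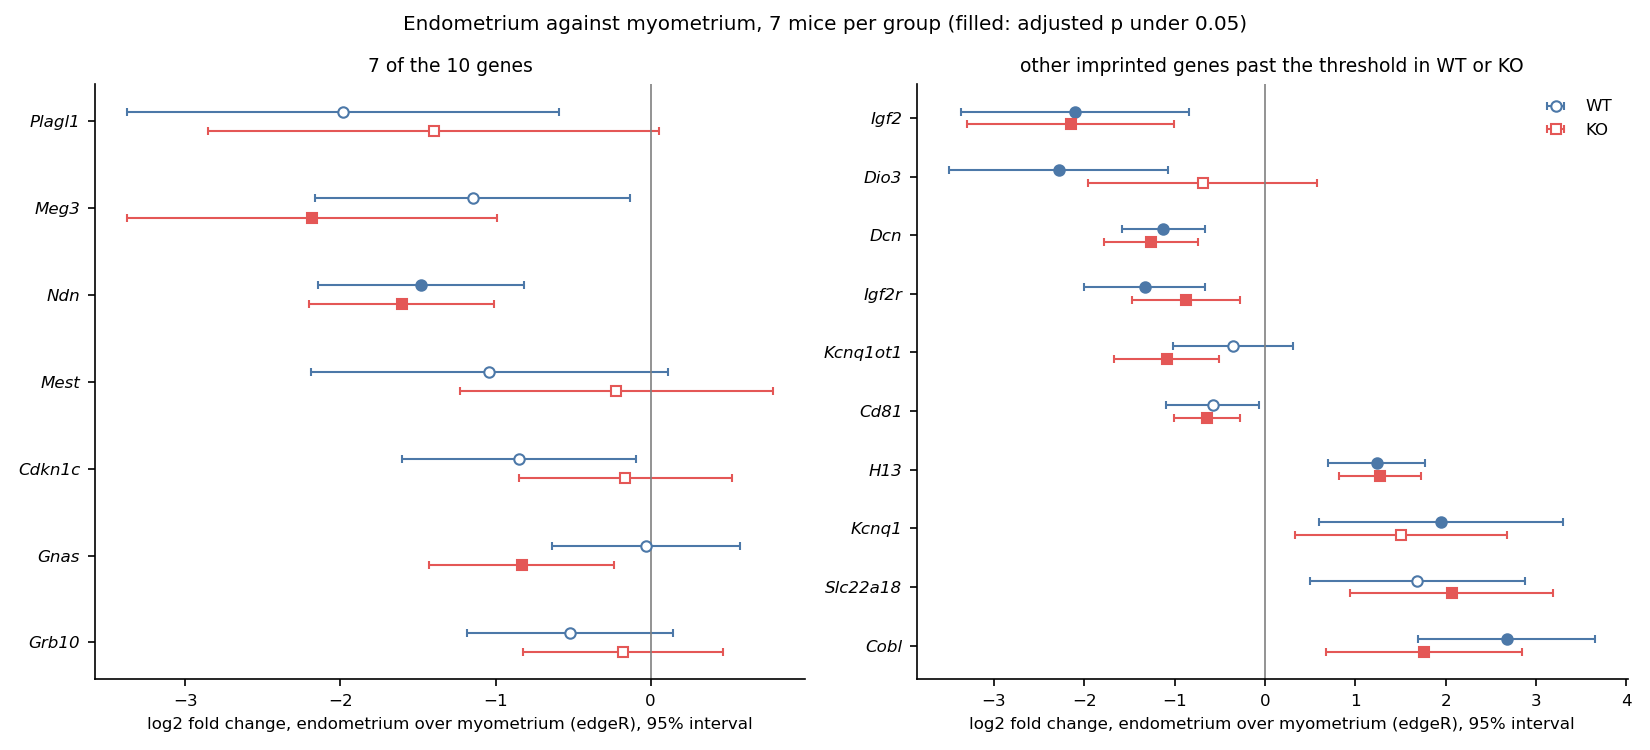
Log2 fold change of endometrium over myometrium (horizontal axis) for 7 of the 10 genes at left and for the other imprinted genes past the threshold in WT or Plag1KO at right, with bars for the 95% interval and filled symbols for an adjusted p under 0.05 (7 mice per group). At left only Ndn is filled in both genotypes, and Dcn, Igf2, Igf2r, H13 and Cobl are filled in both at right.

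The 4 members with a mean of at least 20 CPM varied largely apart from each other. Over the 42 samples the 6 pairs among Cdkn1c, Grb10, Ndn and Gnas had r from 0.14 to 0.34, and from -0.05 to 0.27 after each group's mean was removed. The genes whose pattern was most like that of Ndn among the 4298 others at that level were Lims1, Hacd1 and Tceal3, all with r of 0.89. After removal of the group means they were Gamt, Rgs2 and Rcn3, with r of 0.72, 0.70 and 0.70. For Cdkn1c (Hdac5), Grb10 (Rock1) and Gnas (Dst) the highest r was 0.61, 0.63 and 0.59. The samples share mice and plate rows, and no shared function is read from these values.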

How the data were processed

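RNA of whole uterus, endometrium and myometrium from 7 WT and 7 Plag1KO mice was measured in a single STRT experiment with ERCC spike-in RNA. The deposited values are raw counts per gene, which the authors made by joining unique molecular identifiers and mapping to mm9 with TopHat before they excluded libraries with a low median expression. The study's methods name Homer for counting and the submitters' processing notes name HTSeq, and versions, strand setting and treatment of multimapping reads were not given in the sources used here.

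The 45 libraries were grouped by title. Repeat libraries of a mouse and tissue (3 of Plag1KO mouse 13 endometrium, 2 of WT mouse 12 myometrium) were summed to 42 samples, because the chi-square per degree of freedom was 2.91 to 4.21 and 2.02 between them and at least 5.43 and 3.08 between mice. Genes with 1 CPM in at least 5 samples were tested with edgeR 4.0.16 in R 4.3.3 (quasi-likelihood test, TMM factors, Benjamini-Hochberg adjustment over all genes tested, threshold 0.05), after the procedure was tested on simulated data. Errors are SE of the fit and 95% intervals use its degrees of freedom. In the genotype comparisons, p-values measure the spread between mice. The main fits of the tissue comparisons and of the interaction had no mouse term. They therefore treated tissues of the same mouse as independent samples, and the fit with the mouse as a block is the paired alternative. Alternatives were DESeq2 1.42.0, other scaling factors (relative log expression or spike-in), no filter or 10 CPM in 5 samples, repeat libraries apart or 1 library per mouse, all 6 groups in a single fit, the mouse or the plate rows (A to C: 5 WT and 3 Plag1KO mice, D to F: 2 and 4) as a covariate, and leaving out each mouse. The plate rows and their blocks were inferred from the letters of the library codes, and neither the labels nor the paper names them. Tissues with the same mouse number came from the same animal, and after removal of group means their mean correlation was 0.079 to 0.178 over 14822 genes, against -0.029 to -0.013 for different mice. All 10 members are named, and of the other imprinted genes those past the threshold between the layers. The members and lists were chosen with earlier results of these data known. Floors cover counting error only.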

Additional observations from a re-analysis of the deposited data

Results flagged for a closer look

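In 8 of the 40 groups of 7 samples examined, 1 mouse lay farther from the others than Dixon's 95% criterion allows. For independent groups of normal values this happens in about 1 group in 20. The groups share mice and CPM were not checked for normality, so the 8 flags are not compared with that rate. Plagl1 was at 8.37 CPM in the endometrium and 17.2 CPM in the myometrium of Plag1KO mouse 4, where the next values were 3.29 and 6.58 CPM. Cdkn1c was at 82.3 CPM in the endometrium of the same mouse, with the next at 44.5 CPM. Plagl1 there rested on at most 9 counts in a library. Gnas was high in the endometrium of WT mouse 10 (2071 CPM, next 977 CPM) and of Plag1KO mouse 11 (1317 CPM, next 642 CPM), and in the myometrium of WT mouse 8 (1415 CPM, next 892 CPM). Grb10 was low in the endometrium of WT mouse 8, at 9.28 CPM with the next at 17.4 CPM. Ndn in the uterus of WT mouse 1 was at 59.2 CPM, with the next at 40.2 CPM.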

How the results depend on the processing

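The number of members called between the genotypes and in the interaction was 0 under every alternative run. Between endometrium and myometrium in WT it was 2 in place of 1 with DESeq2, with repeat libraries apart and with a replicate block for the mouse, and 1 to 2 when each mouse was left out (2 without mouse 1 or 5). Between these layers in Plag1KO it was 2 in place of 3 with spike-in scaling, at 10 CPM in 5 samples and with 1 library per mouse. It was also 2 there with all 6 groups in a single fit and without mouse 4, 6, 9 or 14. Between uterus and endometrium it was 1 in place of 0 in WT with spike-in scaling, and 1 in both WT and Plag1KO with the replicate block. Between uterus and myometrium it was 1 to 3 in WT when each mouse was left out, with 1 without mouse 12. In Plag1KO it was 3 with DESeq2, 1 with spike-in scaling, 2 at 10 CPM in 5 samples and 1 to 5 when each mouse was left out, in place of 5. It was lowest, at 1, without mouse 4, and was 2 without mouse 2, 9, 13 or 14. The replicate block changed no other count by over 1.5 times.

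The call of Peg3 between Plag1KO uterus and myometrium was left out of this count, because every library was at or under the floor. Of 171 alternatives to the other 11 member differences past the threshold, 139 kept the call, 31 lost it and 1 changed sign. The sign change was that of Gnas between WT uterus and myometrium (0.050 with spike-in scaling). The other sign changes were of differences that had not passed. With spike-in scaling, endometrium over myometrium became 0.31 for Cdkn1c, 0.33 for Grb10 and 0.32 for Mest in Plag1KO and 0.18 for Gnas in WT, uterus over myometrium in WT became 0.20 for Cdkn1c and 0.18 for Ndn, and the interaction of Ndn became 0.15. Also with spike-in scaling, Plag1KO over WT became 0.13 for Ndn in endometrium, -0.013 for Grb10 and -0.011 for Ndn in myometrium, and -0.067 for Gnas in uterus. With repeat libraries apart, Gnas between the WT layers became 0.031, and Plag1KO over WT in endometrium became -0.032 for Mest and 0.054 for Ndn. Plagl1 in endometrium became -0.034 with DESeq2, and Grb10 in myometrium -0.025 with plate rows as a covariate. When each mouse was left out, Plag1KO over WT spanned 0 for Mest (-0.25 to 0.50), Ndn (-0.28 to 0.10) and Plagl1 (-0.49 to 0.75) in endometrium. It did so for Grb10 (-0.084 to 0.17), Meg3 (-0.43 to 0.14) and Ndn (-0.00082 to 0.11) in myometrium, and for Gnas (-0.025 to 0.50) and Ndn (-0.21 to 0.00050) in uterus. The layers spanned 0 for Grb10 (-0.31 to 0.075) and Mest (-0.68 to 0.034) in Plag1KO, for Gnas in WT (-0.45 to 0.24) and for the interaction of Ndn (-0.33 to 0.12). Uterus over endometrium in Plag1KO spanned 0 for Gnas (-0.29 to 0.38) and Meg3 (-0.58 to 0.47). DESeq2 gave no adjusted p for 3 of the differences. The causes of these shifts were not tested. Of 314 alternatives for the 10 other imprinted genes named, which were added after the data were seen, 278 kept their side of the threshold, 27 lost it, 9 gained it and 0 changed sign. Depth limits H19 and Dlk1 most, with at most 3 and 1 counts in any library, and then Plagl1, Meg3, Mest and Peg3, with at most 9, 16, 13 and 5.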
